A study of Mus musculus with 4 samples.

Results

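The mouse mitochondrial genome is a small circular DNA with its own mRNAs, rRNAs and tRNAs, and its transcripts were followed here in ILC2s from mouse lungs. The members are the genes of the count table whose symbol starts with mt-. They number 35 of the 49315 genes counted, 13 that encode proteins and 22 that encode tRNAs. The annotation used here, GENCODE M21, lists 37 such genes, and the rRNA genes *mt-Rnr1* and *mt-Rnr2* were not analysed here because no row of the counts used carries them, nor any of the 356 rRNA genes of that annotation. All groups were C57BL/6 mice. The groups were WT mice given PBS (PBS-WT), Hps1-/- mice given PBS (PBS-HPS1), WT mice given bleomycin (BLEO-WT) and Hps1-/- mice given bleomycin (BLEO-HPS1). *Hps1* encodes a subunit of a complex needed to form lysosome-related organelles, and bleomycin injures the lung and leads to fibrosis. Lineage-Thy1.2+ICOS+T1/ST2+ cells were sorted from the lungs and cultured with IL-2, and 1 library was sequenced per group, from 22405, 38873, 84166 and 128647 cells in that order. The study's methods describe both intratracheal and intraperitoneal bleomycin without saying which the sequenced cells came from, and give neither the number of mice behind a library nor, beyond the intraperitoneal course, their age.

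Since no group was replicated, no p-value for a condition can be given. Ratios compare libraries, and intervals cover counting error only. The total counts lay between 72513619 and 87638154, and 3 counts correspond to 0.0303 to 0.0475 CPM, counts scaled to a common library size with TMM factors. *Hps1* stood at 38.3 and 48.4 CPM in the WT libraries (PBS and bleomycin) and at 16.6 and 21.3 CPM in the Hps1-/- libraries. The genes of the sort markers were counted in every library, *Thy1* at 206 to 551 CPM, *Icos* at 32.1 to 79.9 and *Il1rl1*, which encodes T1/ST2, at 23.8 to 40.9, while the ILC2 cytokine genes *Il5* and *Il13* lay at 0.269 to 1.43 CPM. Genes that define other cells were also counted, although the gate should remove lineage-positive cells. The summed CPM of 8 macrophage markers was 4630 to 6820, of 9 T cell markers 784 to 1590, of 7 neutrophil markers 434 to 1520 and of 8 epithelial markers 522 to 1310. For 10 fibroblast markers the sum with PBS was 331 in WT and 496 in Hps1-/- cells, and with bleomycin it was 813 and 3680. None of these markers was at 0 in any library, so the libraries are named below by their group and not as pure ILC2s. In bulk RNA, fewer cells of a type and less RNA per cell cannot be told apart.

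Mitochondrial DNA is read from both strands into long precursors by the polymerase POLRMT, and the tRNAs that punctuate the genes are cut out to release the mRNAs and rRNAs. The 13 mRNAs encode core subunits of the respiratory chain and ATP synthase: *mt-Nd1*, *mt-Nd2*, *mt-Nd3*, *mt-Nd4*, *mt-Nd4l*, *mt-Nd5* and *mt-Nd6* those of NADH dehydrogenase (complex I), *mt-Cytb* cytochrome b of complex III, *mt-Co1*, *mt-Co2* and *mt-Co3* cytochrome c oxidase (complex IV), and *mt-Atp6* and *mt-Atp8* ATP synthase (complex V). All other subunits of oxidative phosphorylation, and all proteins that transcribe and translate the mitochondrial genome, come from nuclear genes.

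A stretch of the mitochondrial genome has a near-identical copy in nuclear DNA, which bears on how reads can be assigned. In GENCODE M21 (GRCm38), chrM:6390-11042, 4653 bases long, lined up with chr1:24611535-24616188, 4654 bases on the minus strand. Its ends were set by 7 annotated unprocessed pseudogenes, in the same order and with nearly the same spacing. The bases between these pseudogenes were not compared. They hold 5 tRNA genes and *mt-Atp8* up to its overlap with *mt-Atp6*, which are called copied by position only. Of the mRNAs, 6 lay wholly in this stretch (*mt-Co2*, *mt-Atp8*, *mt-Atp6*, *mt-Co3*, *mt-Nd3* and *mt-Nd4l*), *mt-Co1* overlapped it by 31.3% of its length and *mt-Nd4* by 63.6%, and 5 lay outside (*mt-Nd1*, *mt-Nd2*, *mt-Nd5*, *mt-Nd6* and *mt-Cytb*). The aligned parts of *mt-Co2*, *mt-Atp6*, *mt-Co3*, *mt-Nd4l* and *mt-Nd4* were 100% identical to *Gm28661*, *Gm10925*, *Gm28437*, *Gm10222* and *Gm28439*, over 681, 678, 783, 294 and 876 bases. Over their aligned parts, the other annotated copies differed from their gene at 1 base each. These were A1066T between *mt-Co1* and *Gm29216*, over 483 bases, and T3C between *mt-Nd3* and *Gm28438*, over 345 bases. Positions are counted from the first base of the mitochondrial gene. The bases of *Gm29216* before its base 10 were not part of the alignment. The windows below, from the transcript sequences of GENCODE M21, show how little separates gene and copy, with the base that differs in capitals.
mt-Co1 (bases 1063 to 1106): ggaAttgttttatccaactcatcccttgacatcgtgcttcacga
Gm29216 (bases 10 to 53): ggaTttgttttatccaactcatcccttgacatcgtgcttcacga
mt-Nd3 (bases 1 to 43): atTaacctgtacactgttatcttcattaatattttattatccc
Gm28438 (bases 1 to 43): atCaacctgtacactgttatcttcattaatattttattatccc

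Members also overlap each other. *mt-Atp8* and *mt-Atp6* share 43 bases of the same strand, and *mt-Nd5* and *mt-Nd6* share 14 bases on opposite strands, *mt-Nd6* being the only mRNA gene of the minus strand. The shared bases are in capitals in the sequences below, the whole of *mt-Atp8* and the last 60 bases of *mt-Nd5* and *mt-Nd6*, because reads there cannot be given to a gene by sequence alone, and the sources used here do not say whether counting used strand.
mt-Atp8: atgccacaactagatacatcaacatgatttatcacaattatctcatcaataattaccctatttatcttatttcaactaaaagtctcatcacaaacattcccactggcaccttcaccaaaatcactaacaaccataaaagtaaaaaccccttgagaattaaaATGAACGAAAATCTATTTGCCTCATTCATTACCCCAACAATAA
mt-Nd5: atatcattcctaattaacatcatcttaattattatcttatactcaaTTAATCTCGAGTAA
mt-Nd6: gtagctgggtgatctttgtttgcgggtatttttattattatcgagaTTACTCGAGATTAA

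Counts per kilobase fell into separate ranges along the genome. In PBS-WT the 7 mRNAs not wholly in the copied stretch had 35200 (*mt-Nd6*) to 501000 (*mt-Co1*) counts per kilobase, and the 6 wholly inside it had 184 (*mt-Co2*) to 1810 (*mt-Nd3*). The lowest of the 7 stood above the highest of the 6 by 19.4-fold and 17.3-fold in the PBS libraries (WT and Hps1-/-) and by 21.2-fold and 18.4-fold in the bleomycin libraries. *mt-Co2* had 126, 127, 63 and 32 counts in WT and Hps1-/- cells with PBS and in WT and Hps1-/- cells with bleomycin, an order kept for every run of 4 values, and its nuclear copy *Gm28661* had 140, 134, 80 and 37. Thus a gene that encodes a core subunit of complex IV was counted about as often as its pseudogene, while *mt-Co1*, another core subunit of the same complex, had 774110, 759661, 377627 and 195284 counts. Together the 11 nuclear copies with at least 95% identity had 879, 825, 492 and 304 counts, so adding them leaves the copied genes far below the rest. How reads with several matches were counted is not given in the sources used here, and its part in these low values was not tested. The counts of the 6 copied mRNAs are therefore uncertain. So are those of *mt-Co1* and *mt-Nd4* for their part within the stretch. A further copy of *mt-Co1*, *Gm13340* on chromosome 2, matches it over its whole length at 97.6% identity. The levels below lead with the 7 mRNAs not wholly in the stretch, a choice made from position after the values had been seen.

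**Figure D1:**
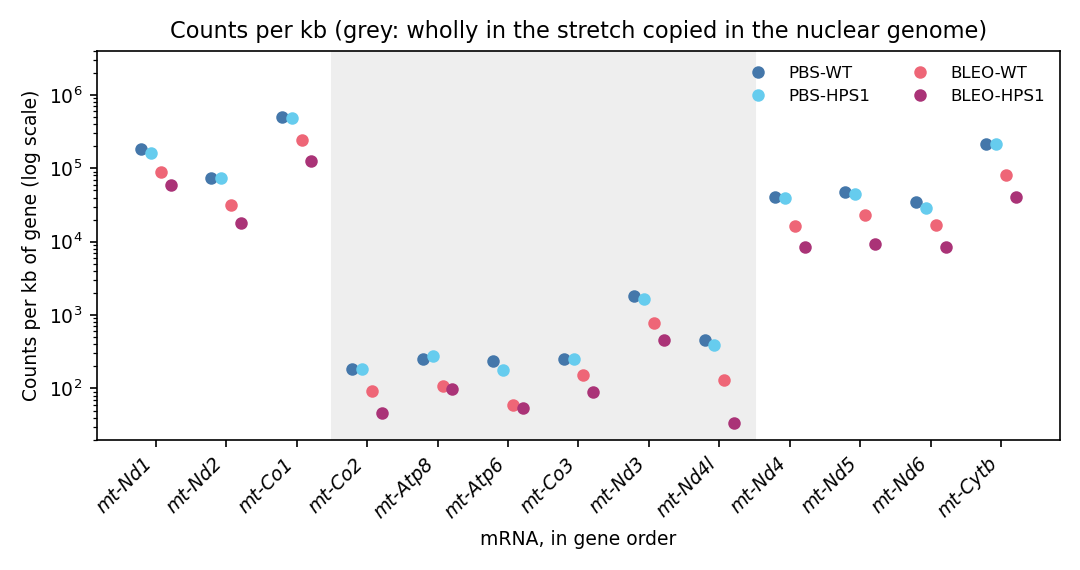
Counts per kilobase of each of the 13 mitochondrial mRNAs (log axis) in gene order, 1 point per library, with the 6 mRNAs wholly inside the nuclear-copied stretch on grey. In each library the 6 points on grey lie under every other point, and for *mt-Co1* the counts per kilobase run from 501000 in PBS-WT to 126000 in BLEO-HPS1.

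Mitochondrial transcripts were a smaller share of the counts in the bleomycin libraries than in the PBS libraries, in both genotypes. With PBS they took 1.98% of counts in WT and 1.79% in Hps1-/- cells, and with bleomycin 0.762% and 0.458%. The 95% Wilson intervals, for counting error, were narrow, from 0.7605% to 0.7642% in BLEO-WT and from 0.4564% to 0.4594% in BLEO-HPS1. The share was 2.60-fold lower with bleomycin in WT cells and 3.92-fold lower in Hps1-/- cells, 1.10-fold lower in PBS-HPS1 than in PBS-WT and 1.66-fold lower in BLEO-HPS1 than in BLEO-WT. *mt-Co1* had the most counts of all genes in both PBS libraries, and ranked 12 in BLEO-WT and 36 in BLEO-HPS1. *mt-Cytb* ranked 10, 9, 101 and 244. The order of the shares is the reverse of the order of the numbers of cells that went into the libraries, and the part of cell number in it was not tested. Of the fibroblast markers, 9 of 10 were higher by 2-fold in BLEO-HPS1 than in PBS-HPS1, against 26.2% of all genes tested. The same number, 9 of 10, was higher by 2-fold than in BLEO-WT, against 6.72% of genes. All 7 neutrophil markers were lower by 2-fold in PBS-HPS1 than in PBS-WT, against 3.11% of genes. The part of other cells in the mitochondrial share was not tested.

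**Figure D2:**
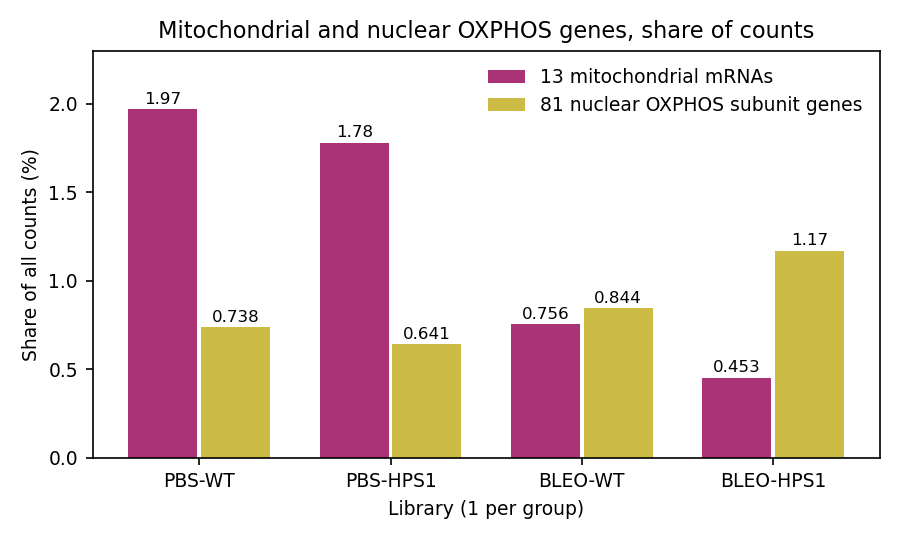
Share of all counts, in percent, taken by the 13 mitochondrial mRNAs and by 81 nuclear genes for subunits of oxidative phosphorylation, 1 bar per library. The mitochondrial bars go down from 1.97% in PBS-WT to 0.453% in BLEO-HPS1, and the nuclear bars are at 0.738%, 0.641%, 0.844% and 1.17%.

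All 7 mRNAs not wholly in the copied stretch were lower with bleomycin in both genotypes. In BLEO-WT against PBS-WT, all 7 were lower by at least 2-fold, against a background of 8.22% of the 14840 genes tested, those that reached 1 CPM in some library. In BLEO-HPS1 against PBS-HPS1, 6 of the 7 were lower by that much, against 19.6% of genes. Their median log2 ratio was -1.07 in WT and -1.38 in Hps1-/- cells, and the median of all tested genes was 0.09 and 0.25. Of all members, 21 of the 35 passed the filter on low values, 12 mRNAs and 9 tRNAs. Counting the copied mRNAs too, 10 of the 12 mRNAs that passed were lower by 2-fold in each bleomycin contrast. The contrasts share libraries, so they are not independent of each other.

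For complex IV, *mt-Co1*, the catalytic subunit, stood with PBS at 9930 CPM in WT and 7670 in Hps1-/- cells, and with bleomycin at 4820 and 3090. Both bleomycin libraries were below both PBS libraries. Bleomycin against PBS gave a log2 ratio of -1.04 in WT and -1.31 in Hps1-/- cells. *mt-Co1* held 54.2% to 57.0% of the counts of the 13 mRNAs, the narrowest relative range among the 7. On counts per kilobase, its share of the 13 was 45.8% to 48.5%. Both shares take in the low and uncertain counts of the 6 copied mRNAs.

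For complex III, *mt-Cytb*, which passes electrons from ubiquinol towards cytochrome c, stood with PBS at 3100 CPM in WT and 2480 in Hps1-/- cells, and with bleomycin at 1190 and 743. Its bleomycin log2 ratios, -1.39 in WT and -1.74 in Hps1-/- cells, were the lowest of the 7. Its share of mRNA counts was 16.9% and 17.7% in the PBS libraries and 14% and 13.4% in the bleomycin libraries.

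For complex I, *mt-Nd1*, the first mRNA after the rRNA genes, stood with PBS at 2240 CPM in WT and 1550 in Hps1-/- cells, and with bleomycin at 1090 and 893. Its log2 ratio was -1.04 with bleomycin in WT cells and -0.79 in Hps1-/- cells, the only value of the 7 short of 2-fold in these contrasts, and -1.44 in Hps1-/- cells with total counts. As a share of mRNA counts it was lowest in PBS-HPS1, 11.1%, and highest in BLEO-HPS1, 16.1%. *mt-Nd2* stood at 975, 772, 421 and 296 CPM. *mt-Nd4* was at 727, 557, 288 and 185 CPM. These proton-pumping subunits had bleomycin log2 ratios of -1.21 and -1.34 in WT cells and of -1.38 and -1.59 in Hps1-/- cells.

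*mt-Nd5*, another proton-pumping subunit of complex I, stood with PBS at 1110 CPM in WT and 814 in Hps1-/- cells, and with bleomycin at 537 and 265. It was the only one of the 7 that was lower by 2-fold between genotypes, with a log2 ratio of -1.02 in BLEO-HPS1 against BLEO-WT. DESeq2 size factors brought this value to less than 2-fold. *mt-Nd6*, read from the other strand, stood at 234, 150, 111 and 69.9 CPM. Its bleomycin log2 ratios, -1.07 and -1.10, lay within the range of the plus-strand mRNAs. The share of complex I among the counts of the 7 was 28.8%, 27.5%, 28.9% and 30.8% in the 4 libraries.

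Between genotypes, with TMM factors, the 7 were lower in Hps1-/- cells in every case, by less than with bleomycin. With PBS none of the 7 was lower by 2-fold, against 3.11% of all genes tested, and the log2 ratios ran from -0.64 (*mt-Nd6*) to -0.32 (*mt-Cytb*) with a median of -0.38, where all tested genes had a median of -0.19. With bleomycin 1 of the 7 was lower by 2-fold, against 10.3% of genes, and the ratios ran from -1.02 (*mt-Nd5*) to -0.28 (*mt-Nd1*) with a median of -0.64, where all tested genes had a median of -0.04. With total counts in place of TMM factors the medians of all genes moved to 0.05 with PBS and -0.17 with bleomycin, and those of the 7 to -0.14 and -0.77. The bleomycin ratio was further below 0 in Hps1-/- than in WT cells for 6 of the 7, most for *mt-Nd5* (a difference of -0.58), and nearer to 0 for *mt-Nd1* (0.25). With total counts *mt-Nd1* too was further below 0, by -0.13. Correcting for GC content and length, described next, turned the direction for all 6, and the difference was then above 0 for all 7, from 0.03 (*mt-Cytb*) to 0.65 (*mt-Nd1*). Between genotypes the corrected medians of the 7 were -0.57 with PBS and -0.32 with bleomycin. Between treatments they were -0.40 in WT and -0.09 in Hps1-/- cells, so the genotype differences were no longer the smaller ones throughout. These differences have no replicate check.

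No 2-fold difference among the 7 was left once ratios were corrected for base composition and length. The 13 mRNAs have a GC content of 31.9% to 41.1%, and at most 7.63% of the 14792 tested nuclear genes lie at or below any of them. The 715 tested nuclear genes with at most 40% GC were also lower with bleomycin, with a median of -0.73 in WT and -1.5 in Hps1-/- cells on the log2 scale, and 36.1% and 68.3% of them were lower by 2-fold. For BLEO-HPS1 against BLEO-WT their median was -0.77, and with PBS it was -0.10 between genotypes. A loess curve of the log2 ratios over GC content and exon length was fitted on nuclear genes and subtracted. GC content and length beyond percentiles 1 and 99 of the nuclear genes were set to those percentiles. In GC content *mt-Nd2*, *mt-Nd4*, *mt-Nd5* and *mt-Nd6* lie below percentile 1, so the value subtracted for them was that of a higher GC content. None of the 14 ratios of 2-fold among the 7 then remained past 2-fold. The corrected medians between genotypes were -0.57 with PBS and -0.32 with bleomycin, and those between treatments were -0.40 in WT and -0.09 in Hps1-/- cells. For *mt-Co1* the corrected values were -0.41 and -0.22 between genotypes and -0.42 and -0.22 between treatments, and for *mt-Cytb*, the lowest in both bleomycin contrasts, -0.73 in WT and -0.70 in Hps1-/- cells. The corrected bleomycin value in Hps1-/- cells was above 0 for *mt-Nd1* (0.40) and *mt-Nd5* (0.03). A change of mitochondrial RNA and a change of the libraries with base composition cannot be told apart here. In PBS-HPS1 against PBS-WT the corrected median was further from 0 than the uncorrected one, and all 7 were below 0, from -0.83 (*mt-Nd6*) to -0.41 (*mt-Co1*), with -0.21 for all tested genes.

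**Figure D3:**
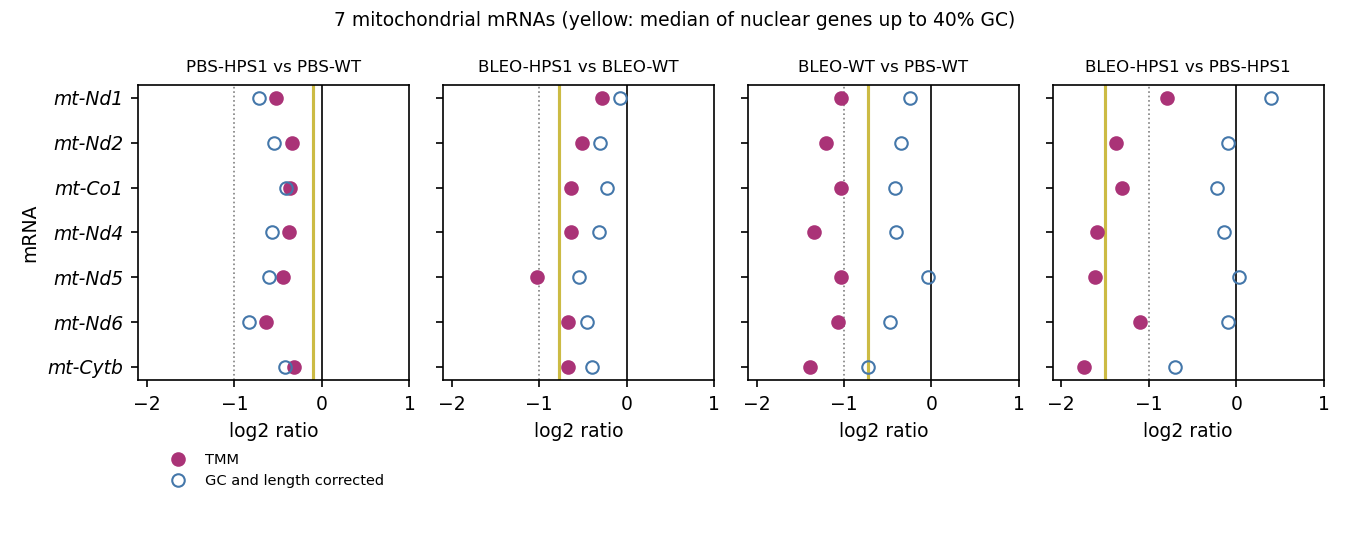
Log2 ratios of the 7 mitochondrial mRNAs in each of 4 contrasts, filled points as scaled by TMM and open points corrected for GC content and length. The yellow line is the median of the 715 tested nuclear genes with at most 40% GC, the dotted line is 2-fold lower, and in the bleomycin contrasts the open points move towards 0.

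**Figure D4:**
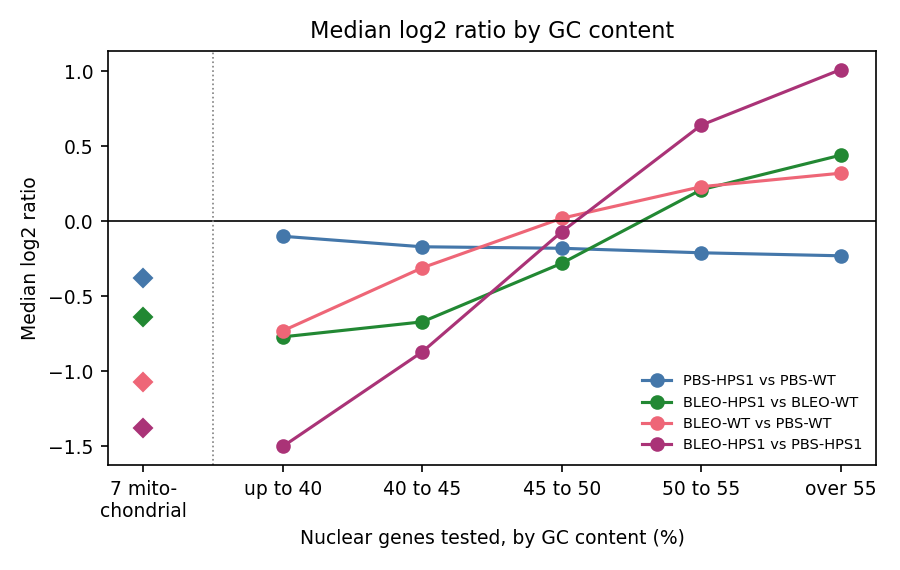
Median log2 ratio of nuclear genes by GC content, and of the 7 mitochondrial mRNAs as diamonds at the left, in 4 contrasts. For BLEO-HPS1 against PBS-HPS1 the nuclear median goes from -1.5 in genes of at most 40% GC to 1.01 in genes over 55% GC, and the mitochondrial median is -1.38.

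The 6 copied mRNAs had low counts and wide intervals. *mt-Nd3* of complex I, with the most counts of them, had 631, 574, 269 and 160, and *mt-Nd4l* had 134, 116, 39 and 10. The log2 ratio of *mt-Nd4l* in BLEO-HPS1 against PBS-HPS1 was -2.71, with a 95% exact interval from -3.99 to -1.96, and in BLEO-HPS1 against BLEO-WT it was -1.51 (-2.82 to -0.62). The complex IV gene *mt-Co3* had 199, 196, 118 and 71 counts. Its log2 ratios, -0.75 and -0.80 with bleomycin, did not reach 2-fold. For complex V, *mt-Atp6*, which forms part of the proton channel, had 160, 121, 40 and 37 counts, and *mt-Atp8* had 52, 56, 22 and 20 and did not pass the filter on low values. The log2 ratio of *mt-Atp6* with bleomycin was -1.96 (-2.55 to -1.5) in WT and -1.03 (-1.63 to -0.52) in Hps1-/- cells.

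Transfer RNAs took 0.00523% to 0.0118% of all counts and 0.549% to 1.14% of mitochondrial counts. Mature tRNAs carry no poly(A) tail, and whether these counts came from tRNAs, precursors or ends of neighbouring transcripts was not tested. Of the 22, 9 passed the filter on low values. Of the 5 inside the copied stretch, *mt-Td*, *mt-Tk* and *mt-Ts1* had 0 to 2 counts in each library. The others inside it had more, *mt-Tg* 47, 49, 19 and 15 counts and *mt-Tr* 52, 29, 7 and 6. Outside it, *mt-Tm* had 36, 25, 14 and 9. Prolyl *mt-Tp*, asparaginyl *mt-Tn* and cysteinyl *mt-Tc*, all of the minus strand, are given here with the anticodon in capitals. Before any correction for GC content and length, their levels did not follow the mRNAs. *mt-Tn* and *mt-Tc* flank the gap of 32 bases where light-strand replication starts, and *mt-Tp* is the last gene before the control region.
mt-Tp: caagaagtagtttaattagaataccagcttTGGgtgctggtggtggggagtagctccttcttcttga
mt-Tn: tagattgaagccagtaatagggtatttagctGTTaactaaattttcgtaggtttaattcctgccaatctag
mt-Tc: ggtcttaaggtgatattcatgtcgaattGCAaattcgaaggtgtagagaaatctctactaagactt

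*mt-Tp* had 3016, 2412, 2848 and 1829 counts, or 38.7, 24.4, 36.3 and 29.0 CPM. *mt-Tn* was at 10.8, 8.63, 9.41 and 11.9 CPM. *mt-Tc* was at 6.25, 4.14, 4.64 and 6.43 CPM. For each of them the PBS and bleomycin libraries overlapped. Their bleomycin log2 ratios were -0.09, -0.20 and -0.43 in WT cells and 0.25, 0.46 and 0.63 in Hps1-/- cells, none of 2-fold. With total counts all were at or below -0.01 in Hps1-/- cells. Together these 3, picked for their values, held 50.6% and 48.0% of tRNA counts in the PBS libraries and 73.4% and 73.7% in the bleomycin libraries.

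Other tRNAs that passed the filter had bleomycin log2 ratios below 0 in both genotypes, the nearest to 0 being that of alanyl *mt-Ta* in Hps1-/- cells, -0.30. Leucyl *mt-Tl1*, which lies between the large rRNA gene and *mt-Nd1*, stood with PBS at 26.1 CPM in WT and 20.4 in Hps1-/- cells, and with bleomycin at 6.71 and 7.0. Its log2 ratio with bleomycin was -1.96 in WT and -1.54 in Hps1-/- cells. Valyl *mt-Tv*, between the rRNA genes, stood at 1.89, 1.63, 0.421 and 0.396 CPM, with ratios of -2.1 and -1.97. Glutamyl *mt-Te*, on the minus strand next to *mt-Nd6*, stood at 11.3, 6.60, 5.09 and 3.62 CPM, with ratios of -1.15 and -0.86. In each bleomycin contrast 4 of the 9 tRNAs tested were lower by 2-fold, against 8.22% of all genes in WT and 19.6% in Hps1-/- cells, and none was between genotypes, against 3.11% with PBS and 10.3% with bleomycin. All 22 tRNAs summed to 110, 77.4, 68.6 and 64.1 CPM. The 14 plus-strand tRNAs summed to 36.3, 27.8, 9.82 and 9.42 CPM, and the 8 minus-strand tRNAs to 73.9, 49.5, 58.8 and 54.7 CPM. Of 9 other RNAs without a poly(A) tail, 3 passed the filter, *Rn7sk*, *Rmrp* and *Rpph1*, and the list summed to 20.1, 9.29, 36 and 33.9 CPM. The part of poly(A) capture in these tRNA values was not tested.

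**Figure D5:**
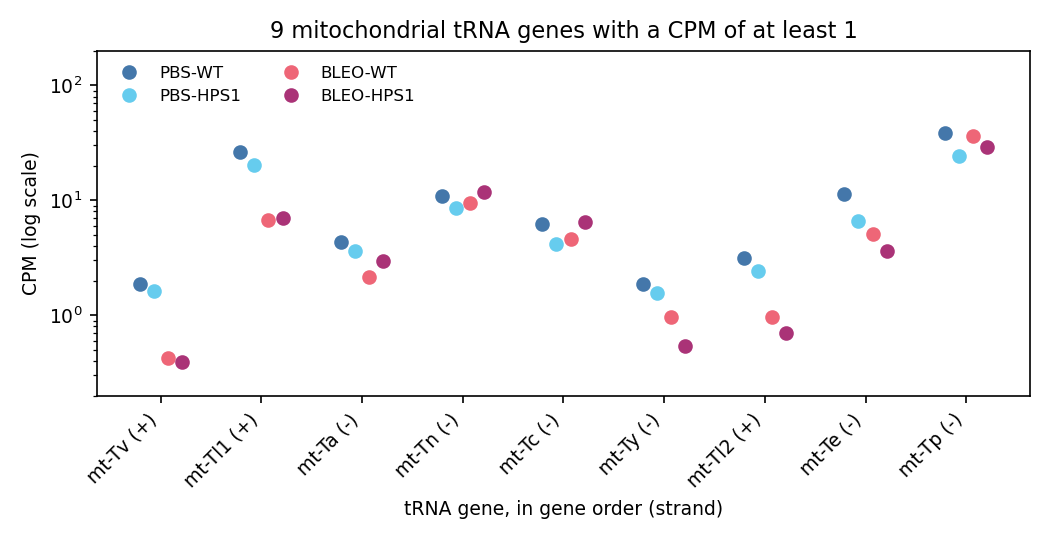
CPM (log axis) of the 9 mitochondrial tRNA genes that passed the filter, 1 point per library, with the strand in parentheses. *mt-Tl1* stands at 26.1 and 20.4 CPM with PBS and 6.71 and 7.0 with bleomycin, while the points of *mt-Tp*, *mt-Tn* and *mt-Tc* overlap between treatments.

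With TMM factors, most nuclear genes of oxidative phosphorylation were higher by 2-fold with bleomycin in Hps1-/- cells, where the mitochondrial mRNAs were lower. In WT cells none was. Their median log2 ratio in Hps1-/- cells was short of 2-fold with the GC and length correction (0.95) and with total counts (0.93). The corrected median of the 7 mitochondrial mRNAs there was -0.09. The 81 nuclear subunit genes took, with PBS, 0.738% of counts in WT and 0.641% in Hps1-/- cells, and with bleomycin 0.844% and 1.17%. In BLEO-HPS1 against PBS-HPS1, 68 of the 80 tested were higher by 2-fold and none lower, with a median log2 ratio of 1.57, against a background of 26.2% of genes higher and 45.9% past 2-fold in either direction. By complex, 33 of 37 genes of complex I, 3 of 4 of complex II, 7 of 9 of complex III, 12 of 15 of complex IV and 13 of 15 of complex V were higher by 2-fold. *Sdhb*, the iron-sulfur subunit of complex II, stood with PBS at 87.2 CPM in WT and 60.4 in Hps1-/- cells, and with bleomycin at 147 and 252. *Uqcrq* of complex III stood at 63.0, 45.1, 102 and 184 CPM, and *Ndufa11* and *Ndufb8* of complex I reached 65.6 and 147 CPM in BLEO-HPS1 from 15.6 and 36.6 in PBS-HPS1.

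In BLEO-WT against PBS-WT none of the 80 was past 2-fold in either direction, against 13.5% of genes (5.28% higher), and the median was 0.46. In BLEO-HPS1 against BLEO-WT, 2 were higher by 2-fold against 6.72% of genes, *Cox4i2* (log2 ratio 1.5) and *Ndufs5* (1.14), and the median was 0.66. In PBS-HPS1 against PBS-WT none was past 2-fold, against 5.27% of genes (2.16% higher), and 78 of the 80 were below 0 with a median of -0.47. That contrast was the one in which nuclear and mitochondrial subunits lay on the same side. The corrected nuclear medians between genotypes were -0.36 with PBS and 0.25 with bleomycin, and those between treatments were 0.36 in WT and 0.95 in Hps1-/- cells. With total counts the medians between treatments were 0.20 and 0.93. The nuclear subunits have a median GC content of 51.4%, and the 13 mitochondrial mRNAs one of 37.1%.

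The mitochondrial ribosome, which translates the 13 mRNAs, is built from nuclear-encoded proteins. Of its 82 genes tested, 55 were higher by 2-fold and 1 lower in BLEO-HPS1 against PBS-HPS1, against 26.2% and 19.6% of all genes, with a median log2 ratio of 1.25. That median was 0.80 when corrected for GC content and length and 0.61 with total counts, both short of 2-fold. *Mrpl54* of the large subunit stood at 14.9, 9.36, 21.5 and 44.2 CPM, and *Mrps11* of the small subunit at 13, 9.23, 19.8 and 37.2. In BLEO-WT against PBS-WT none was past 2-fold, against 13.5% of all genes. In PBS-HPS1 against PBS-WT none was, against 5.27% of all genes, and the median was -0.42. In BLEO-HPS1 against BLEO-WT 3 were higher, *Mrps16*, *Mrpl54* and *Gadd45gip1*, against 6.72% of all genes. Genes for proteins of the cytosolic ribosome were higher too, with 81 of 91 higher by 2-fold in BLEO-HPS1 against PBS-HPS1, where 26.2% of all genes were. Their median log2 ratio of 1.70 stayed past 2-fold when corrected for GC content and length (1.04) and with total counts (1.05). They took 6.45%, 5.55%, 7.10% and 11.5% of counts, and what part of this held for mitochondrial genes in particular was not tested.

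The genes that transcribe and mature mitochondrial RNA did not lie on one side. *Polrmt*, the mitochondrial RNA polymerase, stood with PBS at 24 CPM in WT and 20.5 in Hps1-/- cells, and with bleomycin at 31.6 and 42.1. *Tfam*, which packages the genome and starts its transcription, stood at 33.3, 29.8, 25.9 and 19.6 CPM. *Lrpprc*, which stabilises mitochondrial mRNAs, was at 38.8, 34.1, 34.4 and 22.3 CPM, and its partner *Slirp* at 14.8, 9.56, 18.8 and 19.6. Of the 10 transcription genes, 4 were lower and 1 higher by 2-fold in BLEO-HPS1 against PBS-HPS1, with a median log2 ratio of -0.77. The 4 were the MTERF family members *Mterf1b* (-2.21), *Mterf2* (-1.49), *Mterf3* (-1.49) and *Mterf1a* (-1.20), of which the first 2 and the last were under 3 CPM in every library. Background shares in this contrast were 26.2% of genes higher and 19.6% lower. Corrected for GC content and length, the list's median was 0.18 and only *Mterf1b* of the 4 stayed past 2-fold (-1.28), with *Mterf2* at -0.89, *Mterf3* at -0.84 and *Mterf1a* at -0.06. *Polrmt* went from 1.04 to 0.48, while *Slirp* went from 1.04 to 1.92 and stayed past 2-fold. The sign turned for *Tfam*, from -0.60 to 0.37, and for *Lrpprc*, from -0.61 to 0.10.

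Of 36 genes of mitochondrial RNA processing and decay, 5 were higher and 3 lower by 2-fold in that contrast, where 26.2% of all genes were higher and 19.6% lower, and the median was 0.02. *Hsd17b10* and *Trmt10c* encode subunits of the same enzyme, the protein-only RNase P that cuts the 5′ end of mitochondrial tRNAs. *Hsd17b10* stood at 40.6, 28.3, 54.0 and 98.6 CPM and *Trmt10c* at 14.4, 14.2, 7.98 and 4.05, so they lay in opposite directions with bleomycin, with log2 ratios of 1.80 and -1.80 in Hps1-/- cells. *Pnpt1*, a mitochondrial RNA exonuclease, was at 22.7, 25.2, 15.2 and 7.88 CPM, and *Trnt1*, which adds the CCA end of tRNAs, at 33.3, 31.4, 20.4 and 11.3. The poly(A)-removing enzyme gene *Pde12* had a log2 ratio of -1.01 in BLEO-HPS1 against BLEO-WT. Corrected for GC content and length, *Hsd17b10* stayed past 2-fold (1.16), while *Trmt10c* (-0.73), *Pnpt1* (-0.41), *Trnt1* (-0.26) and *Pde12* (-0.19) did not, and the list's median was 0.30.

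Of 17 genes that maintain mitochondrial DNA, 2 were higher (*Atad3a* and *Mpv17*) and 2 lower (*Rrm2b* and *Primpol*) in BLEO-HPS1 against PBS-HPS1, against the same background of 26.2% higher and 19.6% lower, with a median of 0.46. *Rrm2b*, a ribonucleotide reductase subunit that supplies deoxynucleotides outside S phase, stood at 23.4, 20.5, 12.7 and 5.73 CPM, with a log2 ratio of -1.84 in that contrast and -1.14 in BLEO-HPS1 against BLEO-WT. Corrected for GC content and length, these were -0.09 and -0.34, and none of the 4 genes stayed past 2-fold. Of 20 mitochondrial tRNA synthetases 6 were higher and none lower, near the background share, with a median of 0.38 that was -0.27 with total counts. The leucyl enzyme *Lars2* had 304, 197, 600 and 650 CPM, and its log2 ratio with bleomycin was 0.98 in WT and 1.72 in Hps1-/- cells. Of 13 translation factors 2 were higher (*Tufm*, the elongation factor, 1.60, and *Oxa1l*, 1.19) and 2 lower (*Guf1*, -1.55, and *Mtrf1l*, -1.45), and corrected for GC content and length only *Mtrf1l* stayed past 2-fold (-1.10). In BLEO-WT against PBS-WT, no gene of these 5 lists was past 2-fold in either direction, against 13.5% of all genes. Neither was any in PBS-HPS1 against PBS-WT, against 5.27% of all genes.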

How the data were processed

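RNA of sorted, IL-2-cultured lung ILC2s was sequenced in 4 groups, 1 library each, grouped by the sample titles. The authors deposited whole-number counts per Ensembl gene, without normalization, from a SMARTER mRNA kit. The aligner, counter, build, read length and use of strand are not given in the sources used here. Of the 49315 identifiers, 48970 (99.3%) were found in GENCODE M21, the source of positions, sequences, exon lengths and GC contents. Nuclear copies were searched with BLAST 2.17.0 (at least 85% identity over 100 bases). Counts were scaled with TMM factors (edgeR 4.0.16, R 4.3.3), which were 1.08, 1.27, 0.895 and 0.816, and given as CPM, with 2 added as prior count on the log2 scale. The 14840 genes that reached 1 CPM in any library were tested, and past 2-fold is a rule of size with no p-value. Intervals are exact Clopper-Pearson or Wilson intervals at 95% (scipy 1.17.1), and cover counting error only, since each group has 1 library. They treat counts as independent, which PCR copies of a molecule are not, so they can be too narrow. Alternatives were DESeq2 1.42.0 size factors, total counts, TMM without mitochondrial genes, prior counts of 0.5 and 10, other filters, a 4-fold threshold and a loess correction for GC and length (span 0.3). On simulated data of 14840 genes for BLEO-HPS1 against BLEO-WT, 200 of 200 genes changed 4-fold were past 2-fold and 0 unchanged genes were. The simulated counts had counting error only, the same mean in every library unless changed, and no trend with GC content. The changed genes had a mean of at least 10 CPM. The simulation therefore checks the calculation and bears on no call in the real libraries. Members and lists were chosen with earlier results of these data known. All members could be named, and of the other lists those past 2-fold, at most 4 per list and contrast, besides *Polrmt*, *Tfam*, *Lrpprc*, *Slirp*, *Hps1* and the marker genes.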

Additional observations from a re-analysis of the deposited data

Results flagged for a closer look

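For 5 tRNAs the ratio changed sign between groups, and with 1 library per group the difference was not tested. The bleomycin log2 ratio lay below 0 in WT and above 0 in Hps1-/- cells for *mt-Tn* (a difference of 0.66), *mt-Tc* (1.06) and *mt-Tp* (0.34). The genotype log2 ratio lay below 0 with PBS and above 0 with bleomycin for *mt-Tl1* (0.06 with bleomycin, a difference of 0.42) and *mt-Ta* (0.45, a difference of 0.69). With total counts none of these sign changes was left, the bleomycin ratios of *mt-Tn*, *mt-Tc* and *mt-Tp* being at or below -0.01 in both genotypes, those of *mt-Tl1* between genotypes -0.11 and -0.07, and those of *mt-Ta* 0.01 and 0.32. The differences were then 0.28 for *mt-Tn*, 0.68 for *mt-Tc*, -0.04 for *mt-Tp*, 0.04 for *mt-Tl1* and 0.31 for *mt-Ta*.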

How the results depend on the processing

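No paired analysis was possible because each group has 1 library, and for the same reason no library could be left out of a group. Values below are given for PBS-HPS1 against PBS-WT, BLEO-HPS1 against BLEO-WT, BLEO-WT against PBS-WT and BLEO-HPS1 against PBS-HPS1, in that order unless named. Over all 13 mRNAs, *mt-Atp8* included, the median log2 ratio was -0.38, -0.64, -1.18 and -1.30. It became -0.57, -0.32, -0.42 and -0.09 with the GC and length correction. For the first and second contrasts it was -0.35 and -0.58 with DESeq2 size factors, -0.14 and -0.76 with total counts, and -0.44 and -0.67 over the 5 mRNAs outside the copied stretch, while a prior count of 10 gave -0.56 in the second. For the 7 mRNAs not wholly in that stretch the corrected medians were -0.57, -0.32, -0.40 and -0.09. The number lower by 2-fold, counted over the 12 mRNAs that passed the filter, was 0, 2, 10 and 10. That count leaves out *mt-Atp8*, which had a log2 ratio of -1.18 in BLEO-WT against PBS-WT. In the last 3 contrasts it was 1, 2 and 1 with the correction and 0, 0 and 1 with a 4-fold threshold, and in BLEO-HPS1 against BLEO-WT 1 with DESeq2 size factors. Among the 7 it was 0, 1, 7 and 6, with total counts 0, 1, 7 and 7, and with the correction 0 in every contrast. Of the 28 ratios of the 7, all kept their sign under DESeq2 size factors, total counts, TMM without mitochondrial genes and prior counts of 0.5 and 10, and 26 under the correction, where in BLEO-HPS1 against PBS-HPS1 *mt-Nd1* went from -0.79 to 0.40 and *mt-Nd5* to 0.03. The alternatives on the 7 and on the 5 mRNAs were chosen after the data had been seen. The number of all tested genes lower by 2-fold was 461, 1530, 1220 and 2913. It was 1941, 4268, 6330 and 12258 with no filter, and 149, 62, 270 and 815 with a 4-fold threshold. With the correction it was 589, 758 and 1112 in the last 3, and with total counts 303 in the first, 2007 in the third and 5175 in the fourth. In WT and Hps1-/- cells with PBS, then with bleomycin, the mitochondrial share was 1.97%, 1.78%, 0.756% and 0.453% over the mRNAs alone, and the share of *mt-Co1* among the 13 mRNAs was 45.8%, 46.6%, 48.5% and 46.6% per kilobase. The cause of the changes with scaling and with the correction was not tested. Depth limits the 6 copied mRNAs and most tRNAs, where 3 counts are up to 0.0475 CPM.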
